A study of Drosophila melanogaster with 36 samples.

Results

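The genes described here encode nuclear subunits of the mitochondrial respiratory chain and of the ATP synthase, measured in Drosophila melanogaster embryos. They were chosen by name from the array's annotation after updating to current symbols: names beginning ND- (complex I), SdhA to SdhD (complex II), names beginning UQCR (complex III), names beginning COX4 to COX8 together with levy (complex IV), and names beginning ATPsyn (the ATP synthase, complex V). Of the 11982 genes that had a probe set with 1 symbol, 70 were chosen: 32 in complex I, 3 in complex II, 6 in complex III, 15 in complex IV and 14 in complex V. Each gene was read from its brightest probe set on average, a probe set being the group of oligonucleotides that measures 1 transcript or several transcripts of a gene. A further 15 symbols that fit the same names, among them SdhA, ND-23, ND-49, UQCR-C1 and UQCR-C2, had no probe set assigned to them alone and were not analysed here.

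Transcript levels were read on 36 one-colour arrays from whole embryos of 9 isogenic lines, fly stocks in which the genome is nearly uniform, at 5 h and 8 h. The lines are named by their array titles: Drosophila_17, Drosophila_23, Drosophila_58, Drosophila_75, Drosophila_83, Drosophila_89, Drosophila_128, Drosophila_134 and Drosophila_145. The labels name no other allele, agent or treatment. Each line and time had 2 RNA samples, but 1 of the 5 h arrays carries no line in its title, so 35 arrays entered the comparisons and line Drosophila_17 had 1 array at 5 h. The labels do not say whether both RNA samples of a line were taken from embryos collected separately. The p-values for lines therefore rest on the spread between RNA samples alone, and that spread may be technical.

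The respiratory chain passes electrons from NADH, through complex I, and from succinate, through complex II, to ubiquinone, then through complex III and cytochrome c to complex IV, which reduces oxygen. Complexes I, III and IV pump protons across the inner mitochondrial membrane, and the ATP synthase lets them return through a rotating ring of c subunits and makes ATP. Most subunits are encoded in the nucleus, and an embryo begins with mitochondria and many transcripts supplied by the mother.

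Levels are given as normalised intensity, the deposited intensity after the 35 arrays of named lines and the unnamed one were brought to the same distribution of values by quantile normalisation. A level is the mean ± SD over the 9 lines, each line being the mean of its RNA samples. A change or difference is on the log2(intensity + 16) scale, ± SE, which understates changes of dim genes. The tests were limma's moderated tests with p-values adjusted by the Benjamini-Hochberg method over all 18769 probe sets, and a gene is called when its adjusted p is under 0.05. A gene is called measured when its probe set lay above the 99th percentile of 50 negative-control probe sets on at least 18 of the 36 arrays. In whole embryos, fewer cells of a type and less RNA per cell cannot be told apart.

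Total deposited intensity per array ranged from 46261 to 309710, and between 3156 and 8128 probe sets per array lay above the negative-control limit. The embryo label was checked against marker genes. All 7 early zygotic markers fell from 5 h to 8 h, and their summed level per array lay between 62.1 and 1115 at 5 h and between 10.8 and 175 at 8 h. All 4 neural markers rose, with sums of 6.80 to 98.2 at the earlier time and 11.9 to 146.1 at the later. Of 6 muscle markers 4 rose, with sums of 3.15 to 176.7 and 4.35 to 411.7. None of 4 testis markers and none of 4 ovarian follicle markers was measured, and the testis markers dj, Mst84Da, ProtA and betaTub85D together reached at most 4.57 on any array.

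Nearly all main subunit genes were measured, and none of their paralogs with an L suffix was. Of the 70 genes 50 were measured, against 32.9% of all probe sets. At 5 h the 50 all exceeded the limit on each of the 17 named arrays. At 8 h they did so on at least 14 of 18, and 43 exceeded it on all 35. The 20 genes that were not measured comprised all 18 whose symbol ends in the suffix L, L1 or L2, together with ND-B8 and UQCR-11. The final L of ND-MNLL was not counted as a suffix. Of the 52 genes without such a suffix, 50 were measured.

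The 18 suffixed genes encode second copies of a subunit. They are COX4L, COX5BL, COX6AL, COX6AL2, COX6CL, COX7AL, COX7AL2, ND-20L, ND-24L, ND-51L1, ND-51L2, ND-B14.5AL, UQCR-11L, UQCR-14L, ATPsynbetaL, ATPsynCF6L, ATPsynepsilonL and ATPsynGL. Mean intensities of the 20 unmeasured genes lay between 0.46 and 1.48 at 5 h and between 0.43 and 2.01 at 8 h. No gene of that group exceeded the limit on more than 3 of 17 arrays at 5 h or 5 of 18 at 8 h. Such values are not well above background on these arrays, and no fold between a subunit gene and its copy was taken because each is read by its own probe set.

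**Figure D1:**
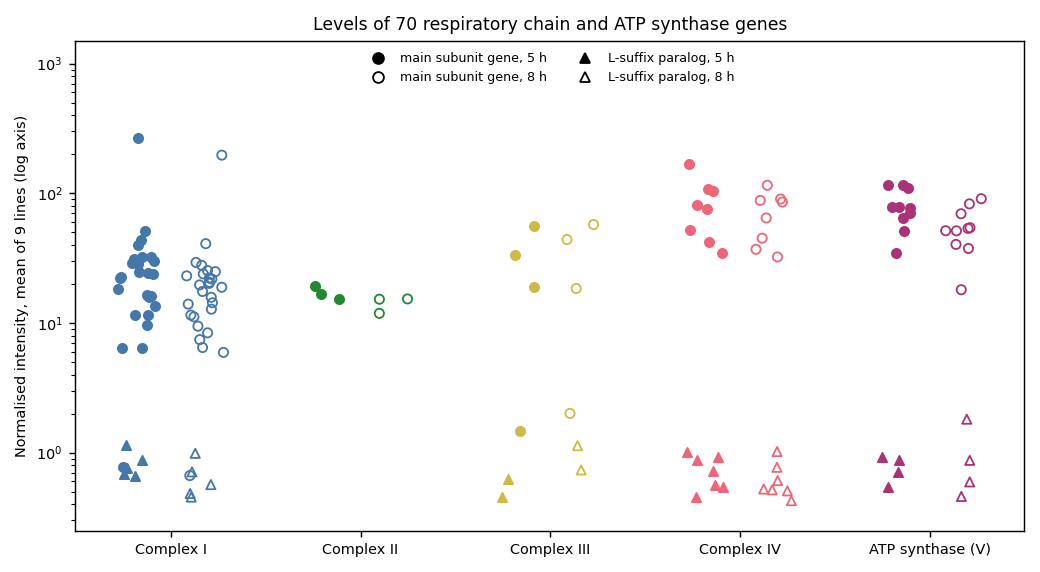
Mean normalised intensity over the 9 lines of each of the 70 genes, by complex, on a log axis, with 5 h filled and 8 h open. The 18 paralogs with an L suffix (triangles), ND-B8 and UQCR-11 lie at or under 2.01, and the 50 measured genes lie at or above 5.93.

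Within complex I the brightest probe set was that of ND-MLRQ, at 268.1 ± 103 at 5 h and 197 ± 46.1 at 8 h. The mammalian counterpart of ND-MLRQ, NDUFA4, was first assigned to complex I and later found in complex IV. The other 25 measured complex I genes had mean levels of 6.39 to 51.0 at 5 h and 5.93 to 40.9 at 8 h. Measured complex II genes lay between 15.2 and 19.1 at 5 h, complex III genes between 19.1 and 55.8, complex IV genes between 34.8 and 168.6, and ATP synthase genes between 34.8 and 115.8. These are intensities of different probe sets and set no order of abundance between genes.

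From 5 h to 8 h, 17 of the 70 genes fell and none rose. That is 24.3% of the genes, against 3.67% of all probe sets falling and 3.85% rising. The 17 are 34% of the measured genes, against 10.6% falling and 9.69% rising among the 6183 measured probe sets. At an unadjusted p under 0.05, 31 genes were lower and 2 higher by limma. At that threshold 3675 of all 18769 probe sets passed, in either direction. Of the 50 measured genes 45 had an estimate below 0, and the median change was -0.23 against -0.03 over all measured probe sets. Of the measured genes those that fell were 7 of 10 in the ATP synthase, 9 of 26 in complex I, 1 of 8 in complex IV, and none of 3 in complex II or of 3 in complex III. On the deposited scale 45 genes fell, all of them measured, where 15.7% of all and 45.8% of measured probe sets did. By complex the 45 were 10 in the ATP synthase, 25 in complex I, 6 in complex IV, 3 in complex II and 1 in complex III. With arrays centred on their medians 44 fell, all measured, where 13.4% of all and 39.3% of measured probe sets did. A difference between complexes was not tested.

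The ATP synthase genes had a median change of -0.46, and all 10 measured members had an estimate below 0 on every scaling of the arrays that was tried. ATPsynE, a small membrane subunit, had the largest fall. Its line means ran from 80.1 through a median of 112.9 to 125.3 at 5 h and from 48.1 through 69.9 to 81.3 at 8 h. The lowest 5 h line was line Drosophila_75, at 80.1, and the highest 8 h line was line Drosophila_89, at 81.3, so the groups overlapped by that pair of lines alone. The mean went from 110.3 ± 13.9 to 69.5 ± 10.6 (SD, n = 9 lines), a change of -0.57 ± 0.11 by limma with an adjusted p of 0.0025, and it was lower at 8 h in 9 of 9 lines.

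The stalk that holds the catalytic head of the enzyme in place was represented by ATPsynB, ATPsynD, ATPsynO and ATPsynCF6. ATPsynB ran over lines from 41.7 through 70.2 to 78.7 at 5 h and from 34.8 through 39.6 to 51.7 at 8 h. Line Drosophila_75 was lowest at both times, and its 5 h level lay within the 8 h range of the other lines. ATPsynB changed by -0.49 ± 0.12 (adjusted p = 0.0092 by limma) and was lower in 9 of 9 lines. ATPsynD changed by -0.47 ± 0.12 (adjusted p = 0.018) and ATPsynO by -0.40 ± 0.12 (adjusted p = 0.045), each lower in 8 of 9 lines. ATPsynCF6 had an estimate of -0.29 ± 0.12 and was not called (adjusted p = 0.16).

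The rotor was represented by ATPsyndelta and ATPsyngamma of the central stalk and by ATPsynC, which forms the membrane ring. ATPsyndelta went from 77.9 ± 17.7 to 51.4 ± 11.8, a change of -0.48 ± 0.11 (adjusted p = 0.011 by limma) with 9 of 9 lines lower. ATPsynF, a membrane subunit, changed by -0.46 ± 0.12 (adjusted p = 0.017). ATPsyngamma had an estimate of -0.34 ± 0.11 and 9 of 9 lines lower but was not called (adjusted p = 0.057), while its second probe set was, at -0.40 ± 0.11 (adjusted p = 0.030). ATPsynC, the brightest ATP synthase gene over all arrays, had an estimate of -0.30 ± 0.12 and was not called (adjusted p = 0.17).

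ATPsynbeta encodes the catalytic subunit, and its 2 probe sets disagreed. The brighter one, used here, ran over lines from 12.9 through 29.2 to 90.9 at 5 h and from 4.09 through 14.8 to 36.8 at 8 h, with wide overlap. It changed by -0.55 ± 0.13 (adjusted p = 0.0079 by limma) with 8 of 9 lines lower. With array brightness as a covariate, in a fit on single arrays, it was not called. The probe set used exceeded the limit on all 5 h arrays of named lines and on 15 of 18 at 8 h. The other, above it on all 35, gave 0.06 ± 0.08 (adjusted p = 0.77). Only the ATPsynbeta probe set used here carries the suffix that Affymetrix gives to sets matching several transcripts of a gene, and which transcripts each set reads was not tested.

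**Figure D2:**
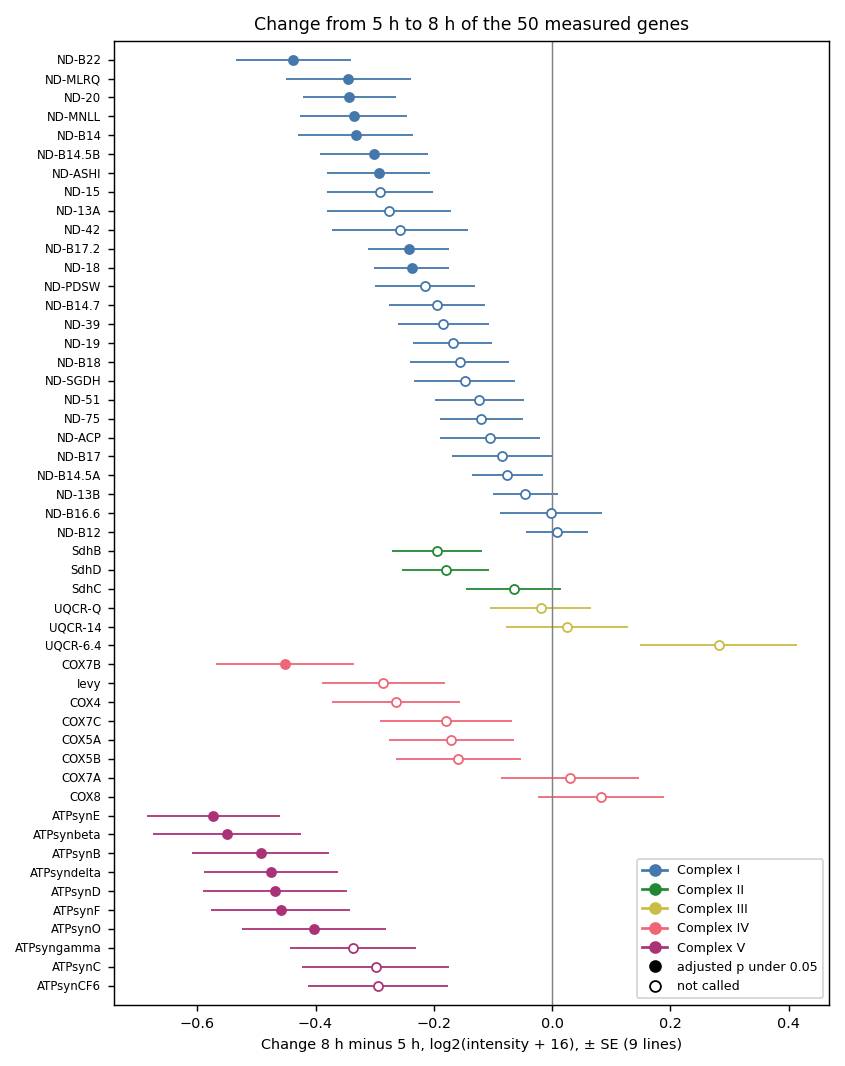
Change from 5 h to 8 h of the 50 measured genes on the log2(intensity + 16) scale, ± SE over 9 lines, by complex, with filled points for adjusted p under 0.05. The 10 ATP synthase genes lie between -0.57 and -0.29, and UQCR-6.4 lies highest at 0.28.

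In complex I the median change of the 26 measured genes was -0.20, and 25 of them had an estimate below 0. The largest fall was that of ND-B22, an accessory subunit of the membrane arm. ND-B22 ran over lines from 35.6 through 43.1 to 52.1 at 5 h and from 20.4 through 27.5 to 33.5 at 8 h. Every line at 5 h was above every line at 8 h. The change was -0.44 ± 0.10 (adjusted p = 0.0066 by limma), lower in 9 of 9 lines.

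ND-20, the core subunit with the last iron-sulphur cluster before ubiquinone, went from 22.4 ± 3.06 to 14.3 ± 2.80, a change of -0.34 ± 0.08 (adjusted p = 0.0082 by limma) with 9 of 9 lines lower. ND-MLRQ changed by -0.34 ± 0.11 (adjusted p = 0.048), and its line means overlapped between the times, at 135.9 to 423.8 for 5 h and 117 to 286.1 for 8 h. The remaining falls were those of ND-MNLL, ND-B14, ND-B14.5B, ND-ASHI, ND-B17.2 and ND-18, between -0.34 and -0.24. ND-B17 was not called on its brighter probe set (-0.08 ± 0.08, adjusted p = 0.66) and was called on the dimmer (-0.22 ± 0.06, adjusted p = 0.026). The core subunits ND-75 and ND-51, which carry electrons in the peripheral arm, had estimates of -0.12 each and were not called. ND-B12 had the highest estimate of complex I, 0.01 ± 0.05.

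In complex II, succinate dehydrogenase, SdhB, SdhC and SdhD had estimates of -0.19, -0.07 and -0.18. None was called here by limma, 2 were lower at an unadjusted p under 0.05, and all 3 were called lower on the deposited scale and with centred arrays. SdhB encodes the iron-sulphur subunit, and SdhC and SdhD the membrane anchor.

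The 3 measured complex III genes had estimates of -0.02 for UQCR-Q, 0.03 for UQCR-14 and 0.28 ± 0.13 for UQCR-6.4. None was called, the adjusted p of UQCR-6.4 being 0.24 by limma, and 1 of them, higher at 8 h, had an unadjusted p under 0.05. The median of the 3 was 0.03 here, -0.34 on the deposited scale, -0.32 with arrays centred on their medians and -0.01 with a common 90th percentile, so its sign depended on the scaling.

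In complex IV COX7B was the 1 gene called here, none was called with a common 90th percentile, and 6 were called on the deposited scale and with centred arrays. COX7B ran over lines from 97.1 through 146.7 to 250.4 at 5 h and from 83.4 through 109.0 to 154.8 at 8 h, with line Drosophila_75 lowest at both times and overlap between the times. It went from 168.6 ± 56.3 to 115.2 ± 21.9, a change of -0.45 ± 0.12 (adjusted p = 0.019 by limma) with 8 of 9 lines lower, while a second measured probe set of the gene gave -0.26 ± 0.10 (adjusted p = 0.13). COX7A and COX8 had estimates of 0.03 and 0.08, and the other 5 measured members had estimates from -0.29 to -0.16. The median of the 8 measured members was -0.18.

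The 17 falls depended on which lines were counted. Leaving out 1 line at a time gave 8 falls without line Drosophila_145, 9 without line Drosophila_23, Drosophila_128 or Drosophila_134, and 11 without line Drosophila_17 or Drosophila_83. ND-B22, ND-20, ATPsynE, ATPsyndelta, ATPsynB and ATPsynbeta were called without any 1 line. All 17 were called on the deposited scale and with arrays centred on their medians. There the median of measured probe sets itself moved to -0.19 and -0.17, and the members' to -0.65 and -0.62. Falls outnumbered rises among all probe sets on both, by 2948 against 328 and by 2509 against 374. Mean total deposited intensity was lower at 8 h in every line except Drosophila_75 and Drosophila_145. The part of dimmer 8 h arrays in these calls was not tested. With a common 90th percentile 14 of the 17 were called. With array brightness as a covariate 14 were called too, in a fit on single arrays, where RNA samples rather than lines are the replicates. That fit gave 19 falls in all, against 28 with the array as the unit and no covariate. Leaving out RNA sample 1 or 2 of every line left 6 and 4 falls.

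The size of the ATP synthase change differed in its estimates from line to line. The median change of the 10 genes was -0.72 in line Drosophila_134, -0.69 in line Drosophila_17, -0.66 in line Drosophila_145, -0.60 in line Drosophila_23 and -0.49 in line Drosophila_128. It was -0.32 in line Drosophila_58, -0.27 in line Drosophila_83, -0.17 in line Drosophila_75 and -0.08 in line Drosophila_89. All 10 estimates were below 0 in 6 lines, 9 in line Drosophila_145, 8 in line Drosophila_75 and 7 in line Drosophila_89. No ATP synthase gene was called here for a difference between lines in its change, and 7 of the 14 had an unadjusted p under 0.05 in that test by limma. The share of all probe sets at that unadjusted p was not worked out. In the same test ATPsynbeta was called on the deposited scale (adjusted p = 0.039), with centred arrays (0.033) and with a pseudocount of 64 (0.031). ATPsynO and ATPsynCF6 were called with a common 90th percentile (0.049 and 0.035).

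Within single lines, 11 genes fell in line Drosophila_134 (4.05% of all probe sets fell there), 7 in line Drosophila_23 (1.8%) and 6 in line Drosophila_145 (0.858%). In line Drosophila_134 these included ATPsynE at -0.97 and ATPsynO at -0.95, in line Drosophila_23 ATPsynD at -1.02 and ATPsynC at -0.93, and in line Drosophila_145 ATPsynE at -0.87 and ATPsynO at -0.82. Lines Drosophila_83 and Drosophila_128 had 2 each (1.27% and 0.394%), and line Drosophila_89 had 1, ATPsynbeta at -1.44 (0.426%). Lines Drosophila_17, Drosophila_58 and Drosophila_75 had none by limma (0.186%, 0.511% and 0.00533%), against 14, 3 and 3 genes lower at an unadjusted p under 0.05. Within a line, shares of probe sets at an unadjusted p and shares of measured probe sets were not worked out. Line Drosophila_17 had a single array at 5 h.

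Early zygotic and maternal marker levels at 5 h differed between the same lines. The summed early zygotic level was 1036 in line Drosophila_134, 851.3 in line Drosophila_145, 722.6 in line Drosophila_17 and 609.5 in line Drosophila_23. It was 419.2 in line Drosophila_83, 285.4 in line Drosophila_128, 154 in line Drosophila_58, 102.5 in line Drosophila_75 and 84.6 in line Drosophila_89. Of 5 maternal markers 4 fell with time, and their summed level at 5 h was highest in line Drosophila_75, at 507.8, and line Drosophila_89, at 432.8, and lowest in line Drosophila_134, at 77.4. The 4 lines with the largest median fall of ATP synthase genes were those with the highest early zygotic sum, and the part of this in the result was not tested.

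**Figure D3:**
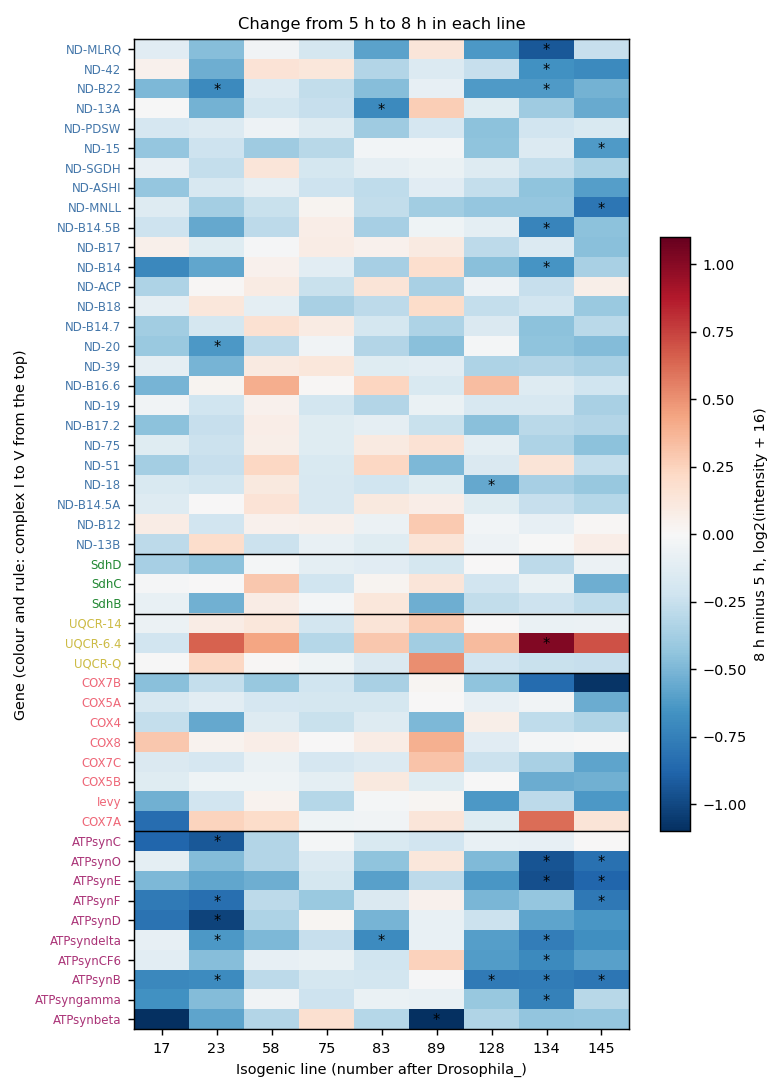
Change from 5 h to 8 h of each measured gene (rows, complex I to V from the top) in each line (columns) on the log2(intensity + 16) scale, with an asterisk for an adjusted p under 0.05 within the line. The ATP synthase rows are lower in lines Drosophila_134, Drosophila_17, Drosophila_145 and Drosophila_23 (medians -0.72 to -0.60) than in lines Drosophila_75 and Drosophila_89 (-0.17 and -0.08), and UQCR-6.4 is the row of highest values in lines Drosophila_134, Drosophila_145 and Drosophila_23.

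UQCR-6.4, a small subunit of complex III, was the 1 gene called here for a change that differed between lines (adjusted p = 0.044 by limma), against 1.37% of all probe sets and 3.48% of measured ones. In line Drosophila_134 its arrays read 19.5 and 15.7 at 5 h and 53.4 and 51.0 at 8 h, a rise of 1.02 ± 0.22 (adjusted p = 0.0022), where 4.09% of all probe sets rose. In line Drosophila_89 they read 66.4 and 68.7 at 5 h and 59.4 and 38.7 at 8 h, an estimate of -0.38 ± 0.22 that was not called. Line Drosophila_89 was the highest line at 5 h and line Drosophila_134 the lowest, and all 4 arrays of line Drosophila_89 lay above the 5 h arrays of line Drosophila_134.

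The UQCR-6.4 estimates were 0.70 in line Drosophila_145, 0.65 in line Drosophila_23, 0.43 in line Drosophila_58, 0.34 in line Drosophila_128 and 0.29 in line Drosophila_83, and none of these was called. They were -0.21 in line Drosophila_17 and -0.31 in line Drosophila_75. The difference between lines in the change was not called on the deposited scale (adjusted p = 0.25), with centred arrays (0.22) or with a common 90th percentile (0.086), where ATP synthase genes were called in its place, so which gene was called depended on the scaling. Over both times UQCR-6.4 differed among lines on every scaling, here with an adjusted p of 7.7e-06.

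Over both times 28 of the 70 genes differed among the 9 lines, against 19.5% of all probe sets. All 28 were among the 50 measured genes, 56% of them, against 51.4% of measured probe sets. By complex they were 13 of 32, 1 of 3, 3 of 6, 6 of 15 and 5 of 14, in the order I to V. At 5 h 11 differed (7.45% of all and 21.1% of measured probe sets did) and at 8 h 18 (18.4% and 44.2%), 6 of them at both times. Of the 17 genes that fell with time 8 also differed among lines. The count of 28 became 13 with array brightness as a covariate, 13 without lines Drosophila_75 and Drosophila_89, and 16 with centred arrays. It became 2 and 1 when RNA sample 1 or 2 of every line was left out. The fit was then additive in line and time, with the line-by-time departure as its error instead of the spread between RNA samples. That drop therefore mixes a change of model with the loss of samples.

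**Figure D4:**
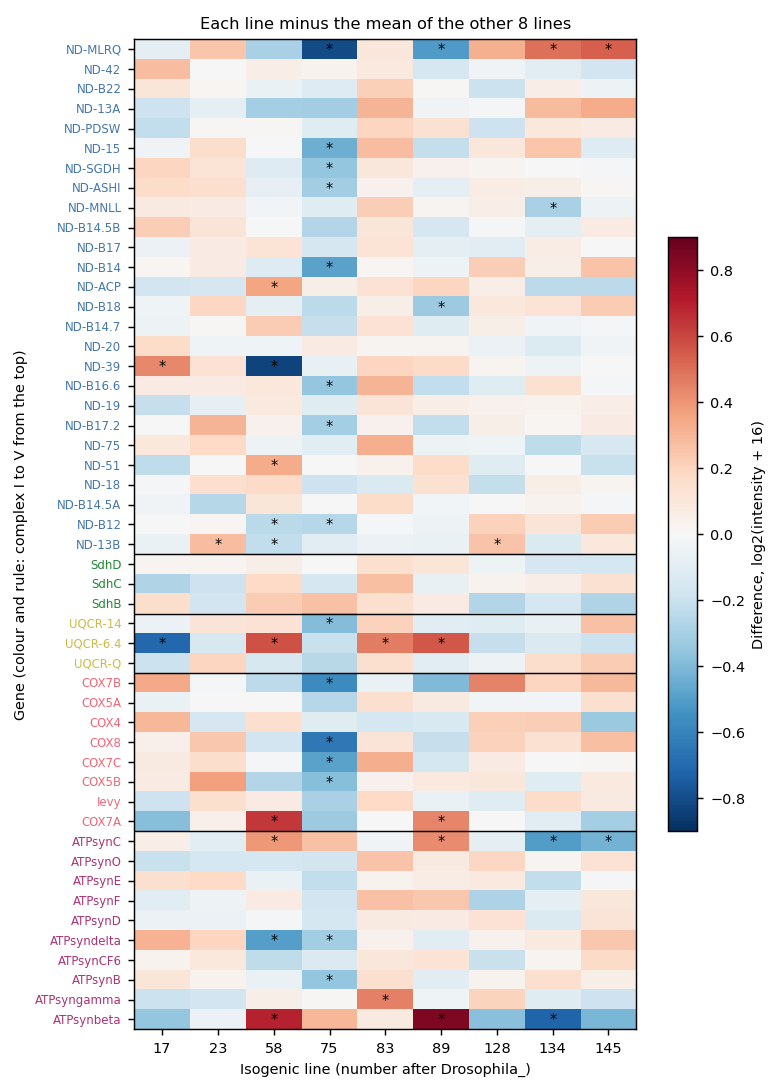
Each line's mean over both times minus the mean of the other 8, on the log2(intensity + 16) scale, for the 50 measured genes by complex, with an asterisk for an adjusted p under 0.05. Line Drosophila_75 has 15 lower calls (ND-MLRQ lowest at -0.81), and ATPsynbeta runs from -0.72 in line Drosophila_134 to 0.84 in line Drosophila_89; on the deposited scale and with centred arrays no gene is called lower in line Drosophila_75.

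ATPsynbeta had the widest span of line means, 1.39 between line Drosophila_89, at 6.02, and line Drosophila_134, at 4.63, on the log2 scale (adjusted p = 4.1e-06 by limma). In line Drosophila_89 its arrays read 93.6 and 88.2 at 5 h and 15.6 and 33.1 at 8 h. In line Drosophila_134 they read 15.7 and 10.2 at 5 h and 7.18 and 3.50 at 8 h. At 5 h both arrays of line Drosophila_89 lay above all arrays of the other lines, and at 8 h they did not.

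Against the other 8 lines ATPsynbeta was higher in line Drosophila_89, by 0.84 ± 0.14, and in line Drosophila_58, by 0.69 ± 0.14, and lower in line Drosophila_134, at -0.72 ± 0.14. ATPsynC was likewise higher in lines Drosophila_58 (0.39 ± 0.11) and Drosophila_89 (0.43 ± 0.11) and lower in lines Drosophila_134 (-0.50 ± 0.11) and Drosophila_145 (-0.43 ± 0.11). ATPsynC was not called with array brightness as a covariate (adjusted p = 0.40), and ATPsynbeta was (0.014). The dimmer ATPsynbeta probe set also differed among lines (adjusted p = 0.0081), but with line Drosophila_58 highest and line Drosophila_17 lowest.

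ND-39, an accessory subunit of the peripheral arm of complex I, was set apart by a single line. In line Drosophila_58 its arrays read 1.92 and 2.21 at 5 h and 2.34 and 4.45 at 8 h. These readings are close to background. The negative-control limit, set on deposited values, was 1.75 to 2.58 on those arrays, and ND-39 exceeded it on all named arrays. In the other 8 lines its arrays read between 10.4 and 28.1 at 5 h and between 9.80 and 27.7 at 8 h. The groups did not overlap at either time. The line Drosophila_58 difference was -0.83 ± 0.09 (adjusted p = 4.5e-08 by limma), and ND-39 differed among lines on every scaling and with array brightness as a covariate (adjusted p = 1.3e-05). ND-39 has 1 probe set, so no second reading of the gene was made. Line Drosophila_17 was higher in ND-39, by 0.43 ± 0.11.

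COX7A, a small subunit of complex IV, was highest in line Drosophila_58, at 57.4 and 49.4 at 5 h and 70.0 and 57.6 at 8 h. Line Drosophila_17 was lowest on average, with 36.8 on its 1 array at 5 h and 12.2 and 15.0 at 8 h. At 8 h the arrays of line Drosophila_17 lay below all others, and at 5 h they did not. COX7A was higher in line Drosophila_58, by 0.64 ± 0.12, and in line Drosophila_89, by 0.44 ± 0.12, and it differed among lines on every scaling and with array brightness as a covariate (adjusted p = 3.0e-04 by limma as reported).

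UQCR-6.4 was higher than in the other 8 lines in line Drosophila_58 (0.58 ± 0.12), line Drosophila_89 (0.56 ± 0.12) and line Drosophila_83 (0.46 ± 0.12), and lower in line Drosophila_17 (-0.71 ± 0.14). Lines Drosophila_58 and Drosophila_89 were thus both higher in ATPsynbeta, ATPsynC, COX7A and UQCR-6.4. These contrasts share their arrays, since each line stands among the other 8 of the next. In all, line Drosophila_58 had 6 higher calls (5.1% of all probe sets) and 4 lower (3.09%), the lower being ND-39, ATPsyndelta at -0.50 ± 0.10, ND-B12 and ND-13B, and it had 8 higher and 1 lower on the deposited scale, 4 and 1 with centred arrays and 5 and 5 with a common 90th percentile. Line Drosophila_89 had 4 higher (1.82%) and 2 lower (1.37%), the lower being ND-MLRQ and ND-B18. It had 12 higher and none lower on the deposited scale, 8 and none with centred arrays and 2 and 2 with a common 90th percentile. With array brightness as a covariate line Drosophila_58 had 2 higher and 2 lower, and line Drosophila_89 had none in either direction. For both lines the share of all probe sets called was not worked out at these other settings. The share of measured probe sets called in 1 line was not worked out at any setting.

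Line Drosophila_75 stood lowest in complexes I and IV, and its standing depended on the scaling. In the other complexes another line had a lower mean log2 level of the measured genes. These were line Drosophila_134 in the ATP synthase (6.14 against 6.19), line Drosophila_17 in complex III (5.37 against 5.41) and line Drosophila_23 in complex II (4.86 against 4.99). Line Drosophila_75 had the lowest mean over both times in 22 of the 50 measured genes. In it 15 genes were called lower and none higher (3.53% and 5.09% of all probe sets, with 4 higher at an unadjusted p under 0.05). The shares of measured probe sets, and of probe sets at an unadjusted p, were not worked out for this contrast. Of the 15, 8 were in complex I, 1 in complex III, 4 in complex IV and 2 in the ATP synthase. The median difference over the 50 was -0.19, against 0.02 over all measured probe sets.

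ND-MLRQ had the largest line Drosophila_75 difference. Its arrays read 135.9 and 135.9 at 5 h and 118.6 and 115.4 at 8 h in line Drosophila_75, and from 146.9 to 505.6 and from 149.5 to 336.3 in the other lines, with no overlap at either time. The difference was -0.81 ± 0.13 (adjusted p = 2.8e-05 by limma). COX8, a small complex IV subunit, read 60.9 and 39.4 at 5 h and 41.3 and 59.1 at 8 h in line Drosophila_75, a difference of -0.64 ± 0.11 (adjusted p = 8.2e-05). COX7B, COX7C and COX5B of complex IV were at -0.57, -0.48 and -0.38, ND-B14 and ND-15 of complex I at -0.48 and -0.44, and UQCR-14 at -0.39.

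On the deposited scale line Drosophila_75 had no measured gene lower and 18 higher, with centred arrays none lower and 7 higher, with a common 90th percentile 26 lower and none higher, and with array brightness as a covariate none in either direction. Its median difference over the 50 genes was 0.32 on the deposited scale, where all measured probe sets had 0.34, and 0.15 with centred arrays, where they had 0.23. The total intensity of its arrays ranged from 212329 to 266525, while that of line Drosophila_134 ranged from 46261 to 110030. Line Drosophila_134 had 3 lower calls and 1 higher here (3.08% and 3.63%), 27 and none on the deposited scale, 10 and none with centred arrays, and 2 and 1 with a common 90th percentile. With array brightness as a covariate it had none in either direction. The share of all probe sets called in a line was not worked out at the other settings, so these counts do not set the genes apart from other probe sets. The part of array brightness in these calls was not tested beyond these settings.

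The remaining lines had few calls. Line Drosophila_145 had ND-MLRQ higher, by 0.53 ± 0.13 (1.94% of all probe sets), and ATPsynC lower (0.73%). It had 9 lower and none higher on the deposited scale, and 3 higher and none lower with a common 90th percentile. With array brightness as a covariate it had none in either direction. Shares of all probe sets at those settings were not worked out. Line Drosophila_83 had ATPsyngamma and UQCR-6.4 higher (0.543%), and it was the highest line in 16 of the 50 measured genes. Line Drosophila_17 had ND-39 higher (0.65%) and UQCR-6.4 lower (0.288%), and lines Drosophila_23 and Drosophila_128 each had ND-13B higher (0.815% and 1.76%). ND-MLRQ and ND-MNLL were called in line Drosophila_134, at 0.50 ± 0.13 and -0.29 ± 0.09, the former turning to -0.48 on the deposited scale and -0.25 with centred arrays. The ND-MLRQ differences among lines were called here (adjusted p = 4.0e-06 by limma) and not on the deposited scale (0.63), with centred arrays (0.83) or with the brightness covariate (0.29).

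**Figure D5:**
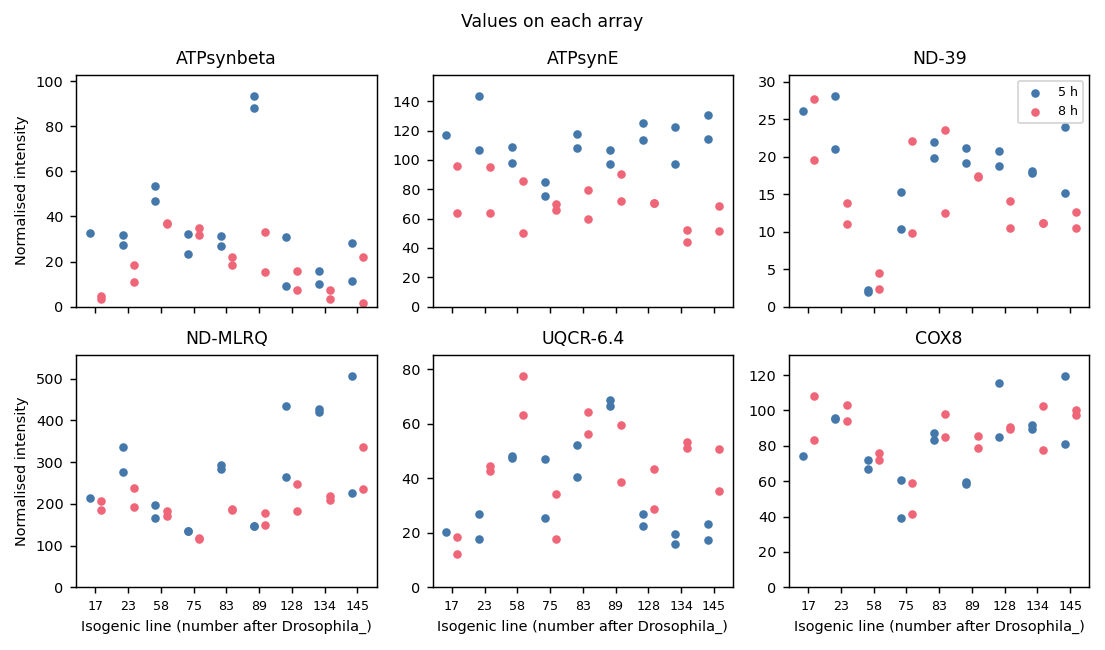
Normalised intensity on each array of named lines for 6 genes, by line, with 5 h in blue and 8 h in red (line Drosophila_17 has 1 array at 5 h). ND-39 in line Drosophila_58 lies at or under 4.45 and in every other line at or above 9.80, and UQCR-6.4 is higher at 8 h in line Drosophila_134 and not in line Drosophila_89.

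Other genes of mitochondrial energy metabolism were taken from lists of named genes. Of 6 other subunits and electron carriers with a probe set (Cyt-c1, RFeSP, ox, cype, blw and sun) none was called for time by limma, none had an unadjusted p under 0.05, and the median change was -0.07. Among them blw, the ATP synthase alpha subunit that pairs with ATPsynbeta in the catalytic head, had an estimate of -0.20 ± 0.14 (adjusted p = 0.48). Of 7 assembly factors 1 fell, Sdhaf3, which helps to mature SdhB, at -0.29 ± 0.07 (adjusted p = 0.012). Of 12 genes of the TCA cycle and pyruvate dehydrogenase none was called (6 at an unadjusted p under 0.05), with a median of -0.07.

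Of 11 genes for inner and outer membrane transport and for expression of the mitochondrial genome 2 fell. These were porin, the outer membrane channel, at -0.44 ± 0.11 (adjusted p = 0.013), and TFAM, which packages mitochondrial DNA, at -0.32 ± 0.08 (adjusted p = 0.019). The median of the 11 was 0.01. Between lines, 3 of the 6 other subunits, 3 of the 7 assembly factors, 7 of the 12 TCA cycle genes and 6 of the 11 others differed over both times, against 19.5% of all and 51.4% of measured probe sets. Of these cype, a complex IV subunit, ran from 5.98 in line Drosophila_75 to 7.34 in line Drosophila_145 on the log2 scale (adjusted p = 4.0e-05). The adenine nucleotide carrier sesB ran from 7.50 in line Drosophila_83 to 8.45 in line Drosophila_134 (adjusted p = 1.8e-05).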

How the data were processed

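The deposited values are intensities on a linear scale for 18952 probe sets on each of 36 Affymetrix one-colour arrays. The software that made them, any scaling and the genome build were not given in the sources used here; per the labels' protocols, TRIzol RNA was labelled by the one-cycle method. After 183 control probe sets were left out, intensities were quantile normalised, since the medians of log2 deposited intensity spanned 0.89, and used as log2(intensity + 16); 91.3% of values lay under 16. The number of arrays limits the precision. Names came from the platform annotation updated through the RefSeq gene table: 13647 probe sets had 1 symbol and 13544 of them matched. The 50 negative controls were taken by their names.

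Models were fitted in limma 3.58.1 (R 4.3.3), with trended prior variance, Benjamini-Hochberg adjustment over 18769 probe sets, and a threshold of 0.05. Time was tested on 18 means of line and time with line as a block (8 residual degrees of freedom), so the 9 lines are its replicates. Lines were tested on 35 arrays with a mean per line and time (17 residual degrees of freedom). The members and lists were chosen with earlier results of these data known. Genes are named where they had the highest mean, largest fall or rise or widest span of a complex, were among the 10 largest called changes or 8 widest called line spans, differed by line in their change, were paralogs, or had disagreeing probe sets; others named beside a count were chosen after their values were seen. Alternatives were other scalings, pseudocounts of 4 and 64, measured probe sets only, the probe set of largest interquartile range, array brightness as a covariate, and leaving out lines or RNA samples. For time, the fit with the brightness covariate was on single arrays rather than on means of line and time. Promoter and protein sequences were not analysed here.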

Additional observations from a re-analysis of the deposited data

Results flagged for a closer look

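For the 21 measured genes named by rule for their level, change or line span, the 9 line means at 5 h, at 8 h and for the change gave 63 groups. In these a line far from the nearest other line was looked for with Dixon's criterion (a gap over 0.493 of the range). Other measured genes named in the report were not searched. Chance flags about 1 in 20 groups of unselected values, and 4 of 63 were found. Many of these genes were named for wide line spans or large changes in the same values, and a gene's change uses the arrays of its levels. That rate is therefore no yardstick here. UQCR-14 at 8 h was 5.72 in line Drosophila_75 on the log2(intensity + 16) scale, with the other lines from 6.07 to 6.42. COX8 at 8 h was 6.04 in line Drosophila_75, with the others from 6.49 to 6.84. ATPsynE at 5 h was 6.58 in line Drosophila_75, with the others from 6.88 to 7.13. ND-39 at 5 h was 4.18 in line Drosophila_58, with the others from 4.84 to 5.40. UQCR-6.4 was picked out because its change from 5 h to 8 h differed between lines, with an adjusted p of 0.044 by limma's interaction test, a call not made on the deposited scale, with centred arrays or with a common 90th percentile.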

How the results depend on the processing

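Counts are of the 70 genes. The 17 falls with time became 45 on the deposited scale, 44 with centred arrays and 28 with the array as the unit, 8 to 19 when 1 line was left out, and 6 and 4 without replicate 1 and 2; under the other settings they were 15 to 25. Rises, none as reported, were 1 with the array as the unit and 1 without lines Drosophila_75 and Drosophila_89. The 28 genes differing among lines became 16 with centred arrays, 13 with array brightness as a covariate, 13 without lines Drosophila_75 and Drosophila_89, and 2 and 1 without replicate 1 and 2. The 11 at 5 h became 21 with a common 90th percentile, 20 over measured probe sets and 2 with the brightness covariate, and the 18 at 8 h became 11 with centred arrays. The 1 gene differing in its change, UQCR-6.4, became 2 with a common 90th percentile (ATPsynO and ATPsynCF6) and with a pseudocount of 64 (UQCR-6.4 and ATPsynbeta), and was ATPsynbeta alone on the deposited scale and with centred arrays. The 44 calls of a gene in 1 line became 80 on the deposited scale, 9 with the brightness covariate, and 5 and 2 without replicate 1 and 2. Line Drosophila_75 differences turned positive on the deposited scale for ND-MLRQ (0.064), UQCR-14 (0.22), COX7B (0.15), ATPsyndelta (0.31) and ATPsynB (0.25), and with centred arrays for ATPsyndelta (0.072) and ATPsynB (0.029). ND-MLRQ turned to 0.088 in line Drosophila_89 on the deposited scale, and in line Drosophila_134 to -0.48 there and -0.25 with centred arrays. The cause was not tested. Without a replicate, the counts for lines came from a fit additive in line and time, so their drop mixes a change of model with the loss of samples. Lines at 1 time and the line-by-time test then have no residual degrees of freedom and were not run. For calls in 1 line, shares of all probe sets were not worked out at the other settings, and shares of measured probe sets at no setting. Signal over background limits dim genes. Same-numbered RNA samples at 5 h and 8 h deviated with correlations of -0.389 to 0.279 over 8 lines. The labels do not say whether the numbers pair samples, and these correlations cannot settle it. With a block for each line and sample number, in a fit on single arrays, there were 25 falls. The line tests instead took the sample number as 1 covariate shared by all lines, which does not pair samples within a line. They gave 29 genes differing among lines, 10 at 5 h, 18 at 8 h, 1 differing in its change and 41 calls in 1 line.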

Other observations

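The array at 5 h whose title names no line entered no comparison. Of the 50 measured genes, 12 read higher on it than on any of the 17 arrays of named lines at 5 h, and 1 read lower. ND-MLRQ read 336.3 on it, against 135.9 to 505.6 on the named arrays.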
